A study of Mus musculus with 69 samples.

Results

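The livers of mice given 225 mg/kg of acetaminophen (APAP) were compared with those of vehicle-treated mice after 1 day. The comparison used the 5 arrays that the titles mark as medium-dose APAP at 1 day and the 5 marked as its vehicle, 10 of the 69 arrays of the series. Every one of the 17306 probe sets was kept, with 1 probe set per gene. All mice were male C57BL/6, aged 10 weeks with a weight of 21 to 27 g, and were dosed once by oral gavage. RNA was taken from the middle of the left lateral lobe and was labelled with a 3' kit for Affymetrix arrays. Both groups differed, by their labels, only in receiving 225 mg/kg APAP or vehicle, and the composition of the vehicle is not given in the sources used here. The series also holds APAP at 168.75 and 300 mg/kg, which are called the low and high doses below, and groups given isoniazid or paraquat, for which the same vehicle mice serve. Each array is taken as 1 mouse, from the design's 5 mice per group.

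APAP is a painkiller that the liver clears by glucuronidation and sulfation, while cytochromes P450, above all CYP2E1, turn a part of it into the reactive quinone imine NAPQI. Glutathione traps NAPQI, and when glutathione runs out NAPQI binds to proteins, chiefly in hepatocytes around the central vein where CYP2E1 is most abundant. Electrophiles of this kind free the transcription factor NRF2 from its inhibitor KEAP1, and NRF2 then turns on genes of quinone reduction, glutathione supply and export through the antioxidant response element in their promoters.

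The promoter windows of Nqo1, Abcc4 and Pmm1 are shown because Nqo1 and Abcc4 are textbook NRF2 targets that rose here and because Abcc4 and Pmm1 are the genes that rose and hold a letter match to the core of that element; all 3 were picked after their values were seen. Each window runs from 250 bases before to 50 bases after the gene's start in RefSeq (GRCm38.p6), is written 5′ to 3′ on the gene's own strand, and has the match in capitals.
Nqo1, chr8:107403156-107403455, minus strand: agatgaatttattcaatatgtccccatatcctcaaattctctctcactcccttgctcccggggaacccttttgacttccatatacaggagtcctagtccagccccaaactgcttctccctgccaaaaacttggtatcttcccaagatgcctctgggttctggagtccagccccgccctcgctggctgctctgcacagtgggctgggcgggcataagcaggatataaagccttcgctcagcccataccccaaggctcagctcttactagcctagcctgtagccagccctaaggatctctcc
Abcc4, chr14:118706170-118706469, minus strand: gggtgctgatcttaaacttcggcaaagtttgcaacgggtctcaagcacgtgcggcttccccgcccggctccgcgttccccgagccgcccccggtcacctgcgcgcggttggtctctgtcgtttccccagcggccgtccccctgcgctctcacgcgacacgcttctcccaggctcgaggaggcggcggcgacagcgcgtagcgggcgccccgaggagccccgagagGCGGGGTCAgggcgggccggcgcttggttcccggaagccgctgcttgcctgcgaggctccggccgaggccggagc
Pmm1, chr15:81960881-81961180, minus strand: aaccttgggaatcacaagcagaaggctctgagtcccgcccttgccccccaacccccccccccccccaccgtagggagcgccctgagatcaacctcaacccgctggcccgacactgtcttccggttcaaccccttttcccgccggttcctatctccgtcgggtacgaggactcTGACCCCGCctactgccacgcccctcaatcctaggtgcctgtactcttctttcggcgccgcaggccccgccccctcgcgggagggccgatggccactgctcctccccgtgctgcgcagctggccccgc
The search used the letters TGACNNNGC on both strands, where N is any base, and TGACTCAGC is the special case with those bases fixed. The Abcc4 match, read on the opposite strand, lies at -25 bases from the start of the gene, and the Pmm1 match at -78 bases. The Nqo1 window held 0 matches, and bases outside the windows were not searched. Of the 28 named genes called higher below, 21 had a window, and 3 of their 25 windows (12%) held the core, which is close to the 12.4% of all 32851 windows. The 3 windows belonged to 2 genes, since Abcc4 has a second start. TGACTCAGC was found in 0 of the 25 windows and in 0.454% of all windows. These matches describe letters in these windows and nothing about binding.

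Signals are log2 values, so that a difference of 1 is a doubling. The 10 arrays had medians between 4.39 and 4.57. General hepatocyte genes such as albumin averaged 13.3 to 13.4 over 13 measured markers on the vehicle arrays and 13.3 to 13.5 on the treated ones. The 5 treated livers differed widely from each other. Replicate 4 had 715 genes more than 1 log2 unit above the vehicle mean and 467 more than 1 below it. Replicate 2 had 17 and 13, within or near the 0 to 16 and 2 to 26 of single vehicle arrays. Replicates 1, 3 and 5 lay between, with 96, 56 and 145 genes above and 18, 20 and 59 below. On the first principal component of all 69 arrays, which held 43.3% of the variance, replicate 4 scored 61.6, the other treated arrays from -8.77 to 13.3 and the vehicle arrays from -14.4 to -8.23. The SD over 5 arrays was larger in the treated group for 71.6% of the genes, and it exceeded 1 log2 unit for 156 genes against 17 in vehicle. Of the low-dose arrays, replicate 1 also stood apart, with 768 genes above and 420 below. Array titles end in a number whose meaning is not stated. Treated replicates 1 and 2 carry numbers above 190, and the other arrays of both groups numbers up to 190.

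**Figure D1:**
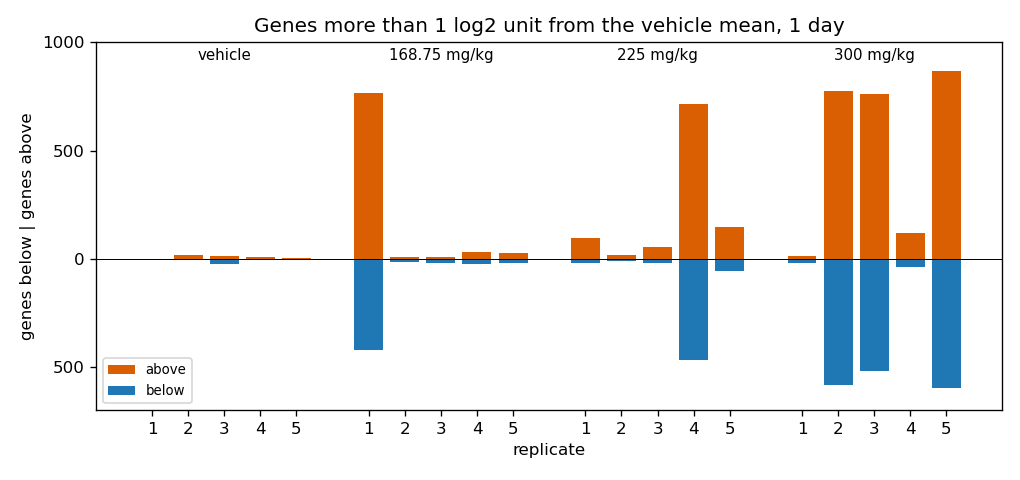
Number of genes more than 1 log2 unit above (upward bars) or below (downward bars) the mean of the 5 vehicle arrays, for each array of vehicle and of 168.75, 225 and 300 mg/kg APAP at 1 day. At 225 mg/kg replicate 4 has 715 genes above and 467 below, while replicate 2 has 17 and 13.

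The comparison of 225 mg/kg with vehicle asked which genes this dose changed after 1 day. Among named genes the largest rises were those of Psat1 (log2 3.49), Ugt2b37 (2.07), Abcc4 (2.04), Pmm1 (1.87) and Cbr3 (1.73), and the largest fall was that of Spsb4 (-0.66). In limma, with 1 spread per gene shared by all 69 arrays, 42 genes passed an adjusted p of 0.05 (0.243% of those tested). Of these, 30 were higher (0.173%) and 12 were lower (0.0693%), 4 had no gene symbol, 14 exceeded a 1.5-fold difference and 9 a 2-fold one. All 5 treated arrays lay beyond all 5 vehicle arrays for 23 of the higher and 9 of the lower genes, where 1.99% of all genes lay wholly above and 2.03% wholly below. At an unadjusted p under 0.05 there were 3187 genes, and 1625 without treated replicate 4. About 865 would be expected if no gene differed and these p values were exact. The shared spread does not ensure that, so the excess is no measure of how many genes changed. Of the 3187 genes, 1576 were higher and 1611 lower, out of 17306, and the list counts below are to be read against those shares. Without treated replicate 4, 9 genes were called, all higher. Without treated replicate 2, 120 were higher and 38 lower. The count was 90 without treated replicate 3, 11 without replicate 5, 21 when vehicle replicate 2 or 4 was left out and 23 when vehicle replicate 5 was. A fit of only the 10 arrays called 2, and a fit of the 20 vehicle and APAP arrays of 1 day called 0 (2044 at an unadjusted p under 0.05). With the range of title numbers as a block 61 genes were called. With only arrays numbered up to 190 it was 1733, which held 41 of the 42. That setting drops treated replicates 1 and 2 and, among others, replicate 1 of the high doses of APAP and paraquat at 1 day. It therefore cannot tell the title numbers apart from the arrays left out. Centring each array on its median gave 19 higher and 27 lower calls. The 9 genes called without replicate 4 included Nqo1, Car2 and Slc48a1 (adjusted p 0.0138 each), Blvrb (0.0276), Abcc4, Maoa and Ift27 (0.0316 each) and Trdc (0.0451).

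**Figure D2:**
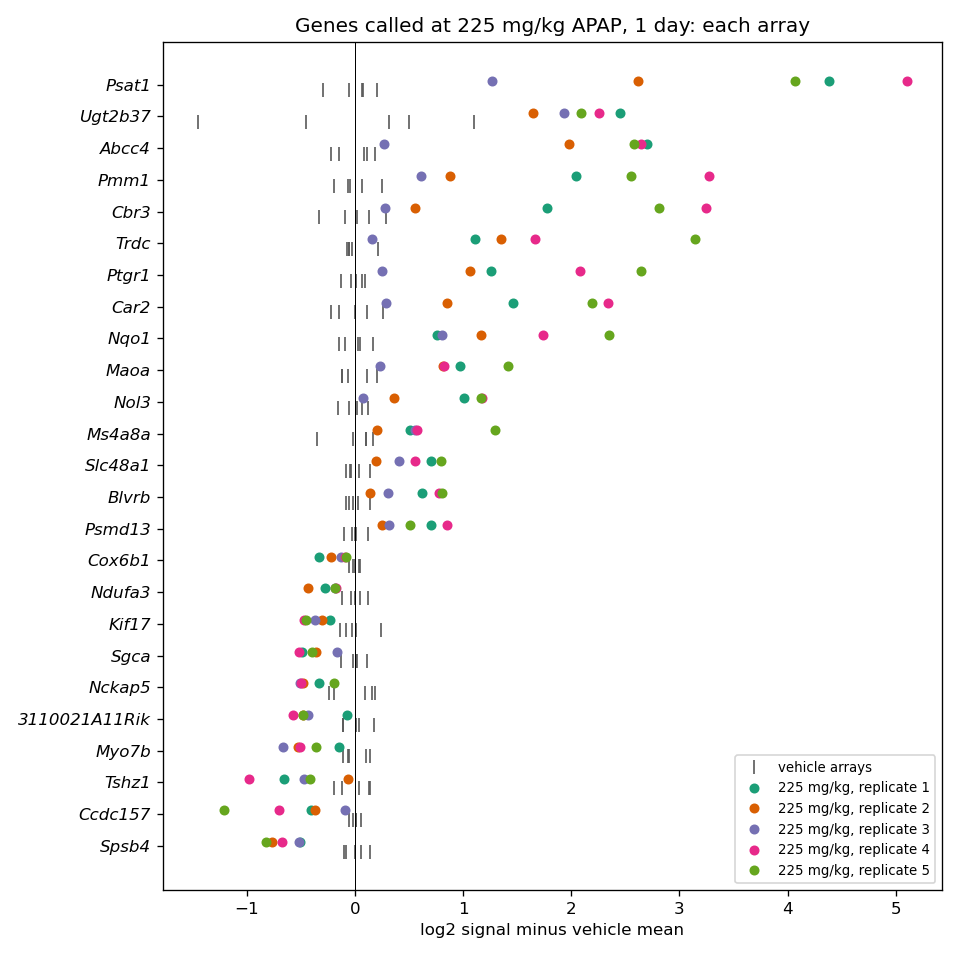
Log2 signal minus the vehicle mean for the 15 largest rises and the 10 named falls among the genes called at 225 mg/kg, 1 day. Points are the 5 treated arrays by replicate and ticks the 5 vehicle arrays. The plotted rises run from 3.49 on average for Psat1 to 0.52 for Psmd13 and the falls from -0.66 for Spsb4 to -0.17 for Cox6b1, and replicate 3 is the lowest treated point for Psat1, Abcc4, Pmm1 and Cbr3.

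Nqo1, which reduces quinones to hydroquinones, read 6.66, 7.07, 6.71, 7.64 and 8.25 in treated replicates 1 to 5 and 6.08, 5.81, 5.93, 5.95 and 5.76 in vehicle. All 5 treated livers lay above all vehicle livers, and replicates 4 and 5 were highest. It rose 2.57-fold, a log2 difference of 1.36 (SE 0.23, limma adjusted p 0.00142, exact permutation p 0.0079). That exact p is the smallest that 5 against 5 arrays allow, and since the genes were called on the same arrays it adds no independent evidence. Abcc4, the MRP4 pump that exports conjugates from hepatocytes into blood, read 7.58, 6.86, 5.15, 7.52 and 7.46 in treated livers and 4.65, 5.06, 4.96, 4.73 and 4.98 in vehicle. Replicate 3 lay just above the highest vehicle liver and the other 4 far above it. Abcc4 rose 4.10-fold (log2 2.04, SE 0.37, limma adjusted p 0.00392). Cbr3, a carbonyl reductase, read 6.43, 5.21, 4.94, 7.91 and 7.47 against 4.68, 4.33, 4.56, 4.95 and 4.79. Replicate 3 overlapped the vehicle range, and the rise was 3.32-fold (log2 1.73, SE 0.38, limma adjusted p 0.02).

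These 3 genes were the called members among 26 measured NRF2 targets, of which 0 were called lower. The list's median log2 difference was 0.21, against -0.02 over all genes, and 14 members were higher at an unadjusted p under 0.05 and 2 lower. Differences were above 0 for 20 members, and the lowest was -0.79. By array, the list averaged 0.47, 0.34, 0.09, 0.38 and 0.61 above the vehicle mean in treated replicates 1 to 5. Replicate 2, with few changed genes in all, was thus above replicate 3 only, though close to replicate 4. Srxn1, which restores oxidised peroxiredoxins, had a log2 difference of 1.39 but a spread of 1.11 (SD), and it did not pass (limma adjusted p 0.0961). Pgd, of the pentose phosphate pathway, and Cbr1, a second carbonyl reductase, lay above all vehicle arrays in all 5 livers, with log2 differences of 0.82 and 0.47 and adjusted p of 0.123 and 0.0693. Fth1, the heavy chain of ferritin, did so with a difference of 0.19 (adjusted p 0.0872). Srxn1, Pgd and Cbr1 were named after their values were seen. Hmox1, the heme-degrading enzyme, read 6.52, 5.52, 6.82, 7.94 and 6.45 against 5.61 to 6.01, lower than every vehicle liver in replicate 2 (log2 difference 0.82, SE 0.38, adjusted p 0.246). Gclc, the catalytic subunit of the enzyme that limits glutathione synthesis, differed by 0.18 (SE 0.14, adjusted p 0.469).

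Of 15 measured genes of glutathione synthesis and recycling and of related peroxide enzymes, 1 was called, Prdx3, the peroxiredoxin of mitochondria. It read 11.09, 10.81, 10.92, 11.08 and 11.02 in treated livers and 10.76, 10.72, 10.88, 10.74 and 10.71 in vehicle. Replicate 2 fell within the vehicle range, and the rise was 1.17-fold (log2 0.22, SE 0.05, limma adjusted p 0.0489). The list's median difference was 0.18. Among 14 genes of APAP activation and conjugation 0 were called in limma and 2 had an unadjusted p under 0.05, 1 in each direction. That is no larger a share than the 3187 of all 17306 genes. Cyp2e1 itself read 13.67, 13.71, 13.60, 13.28 and 13.52 against 13.50 to 13.67 in vehicle, a log2 difference of -0.05 (SE 0.09, adjusted p 0.785). Replicate 4 was the lowest of the 10 livers.

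Ptgr1, Ugt2b37 and Maoa, enzymes outside these lists of NRF2 targets and glutathione genes, rose as well. Ptgr1, which reduces the double bond of lipid-derived aldehydes and ketones, read 8.14, 7.94, 7.13, 8.96 and 9.53 against 6.75 to 6.98 in vehicle. Every treated liver lay above every vehicle liver, for a 2.75-fold rise (log2 1.46, SE 0.30, limma adjusted p 0.0129). Ugt2b37, a glucuronosyltransferase, read 8.59, 7.78, 8.07, 8.39 and 8.23 in treated livers and 5.68, 6.63, 4.69, 6.45 and 7.24 in vehicle. Here the vehicle livers spread widely and the treated ones little (SD 0.98 against 0.31), and the groups did not overlap (log2 2.07, SE 0.47, adjusted p 0.0304). The Ugt2b genes are close copies of each other, and whether the probes tell them apart was not tested. Ugt2b38, another member of the family, had a log2 difference of -1.73 (SE 0.64, adjusted p 0.177). Maoa, the mitochondrial monoamine oxidase, read 7.14, 6.98, 6.39, 6.99 and 7.59 against 6.05 to 6.37, a rise of 1.80-fold with replicate 3 just beyond the vehicle range (log2 0.85, SE 0.17, adjusted p 0.00858).

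The largest rise was that of Psat1, the aminotransferase of serine synthesis and a known target of the amino acid stress regulator ATF4. It read 7.51, 5.75, 4.4, 8.23 and 7.20 in treated livers and 3.33, 3.08, 2.84, 3.20 and 3.20 in vehicle. All 5 treated livers lay above vehicle, from the highest in replicate 4 to the lowest in replicate 3. The fitted rise was 11.2-fold (log2 3.49, SE 0.66, limma adjusted p 0.00514). Its vehicle mean lies below 4.23, the lowest median of any array, so its size against background is not exact. The same holds for Pmm1, Trdc, Nol3, Ms4a8a and Star among the rises named here. Psat1 was 1 of 30 ATF4 and stress response targets called, with 0 lower and a list median of 0.16. Among the others, Nupr1, a stress-induced chromatin protein, read 6.07, 3.70, 3.34, 6.19 and 3.42 and Atf3, a stress transcription factor, 5.23, 4.22, 4.12, 7.93 and 5.29. Vehicle ranged from 2.97 to 3.39 for Nupr1 and from 3.76 to 4.24 for Atf3. Nupr1 was high in replicates 1 and 4 and Atf3 most in replicate 4, and neither passed (adjusted p 0.159 and 0.201).

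Pmm1, a phosphomannomutase, read 5.92, 4.75, 4.49, 7.15 and 6.43 against 3.68 to 4.12 in vehicle. It did not overlap vehicle, and its fitted rise was 3.66-fold (log2 1.87, SE 0.37, limma adjusted p 0.00858). Blvrb, which reduces biliverdin and flavins, read 10.95, 10.47, 10.63, 11.11 and 11.13 against 10.28, 10.47, 10.31, 10.25 and 10.36. Replicate 2 stood at the level of the highest vehicle liver and the others above it (log2 0.53, SE 0.09, adjusted p 0.00148). Slc48a1, which carries heme out of lysosomes, read 7.88, 7.36, 7.57, 7.73 and 7.96 against 7.08 to 7.31. The groups did not overlap (log2 0.53, SE 0.09, adjusted p 0.0018). Of 15 listed heme and iron genes, which include neither of these, 0 were called and 5 were higher at an unadjusted p under 0.05, with a median of 0.11.

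Car2, a carbonic anhydrase, had the smallest adjusted p. It read 7.87, 7.26, 6.69, 8.75 and 8.60 in treated livers and 6.41, 6.66, 6.19, 6.26 and 6.52 in vehicle. Replicate 3 lay just above the highest vehicle liver and replicates 4 and 5 more than 2 log2 units above the vehicle mean of 6.41, for a 2.69-fold rise (log2 1.43, SE 0.22, limma adjusted p 0.000612). Red cell precursors also express Car2, and it was the only called one of 6 measured erythroid markers, whose median was -0.34. The erythroid list averaged 5.22 to 5.80 in treated livers and 5.70 to 5.83 in vehicle, with no treated liver above the vehicle range. Trdc, the constant part of the T cell receptor delta chain, read 4.05, 4.29, 3.10, 4.60 and 6.08 against 2.86 to 3.15. Replicate 3 overlapped vehicle and replicate 5 was highest (log2 1.49, SE 0.29, adjusted p 0.00858). Of 17 T and NK cell markers, 0 were called, 0 had an unadjusted p under 0.05 in either direction, and 14 had vehicle means below 4.23. That list averaged 3.56 to 3.85 in treated livers and 3.67 to 3.69 in vehicle.

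Other called rises were below 1 log2 unit. Nol3, an inhibitor of apoptosis, read 4.2, 3.55, 3.27, 4.37 and 4.36 against 3.04 to 3.31 (log2 0.76, SE 0.15, adjusted p 0.0102), with replicate 3 inside the vehicle range. Psmd13, a subunit of the proteasome's regulatory particle, read 9.10, 8.64, 8.71, 9.25 and 8.91 against 8.29 to 8.52 (log2 0.52, SE 0.11, adjusted p 0.0216). Its treated livers all lay above vehicle, and of 14 other proteasome genes 0 were called, 8 were higher at an unadjusted p under 0.05 and the median was 0.18. Ms4a8a, a membrane protein of the MS4A family, had a log2 difference of 0.63 (SE 0.15, adjusted p 0.0492). The other 13 named rises lay between 0.22 and 0.46. They included Ccng1, a cyclin that p53 induces, which read 7.45, 7.21, 7.20, 7.66 and 7.67 against 6.95 to 7.07 (log2 0.42, SE 0.09, adjusted p 0.0224) and was the 1 called of 23 p53 targets. Cdkn1a, the p53-induced inhibitor of the cell cycle, read 5.16, 3.85, 3.99, 8.08 and 6.16 against 3.66 to 3.99. It was thus high in replicates 1, 4 and 5, and with an SD of 1.75 it did not pass (log2 1.62, SE 0.66, adjusted p 0.203). Xrcc5, the KU80 subunit of DNA end joining (0.36), Rfc2, which loads the replication clamp (0.46), and Bad, a BCL2 family protein that favours apoptosis (0.43), were also among the 13. So were Tspo and Star, which act in cholesterol entry into mitochondria (0.39 and 0.34), Cops6 of the COP9 signalosome (0.30) and Hacd3, which elongates very long fatty acids (0.29). Avpi1, Fibp, Ift27 and Ebpl completed them at 0.36, 0.32, 0.29 and 0.37 together with Prdx3. Ift27, a part of intraflagellar transport, had the smallest SD of the named called genes in treated livers, ranging from 6.29 to 6.38, and from 5.96 to 6.07 in vehicle.

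The falls were small, and none of the 10 named ones reached 1 log2 unit. Spsb4, an adaptor of a ubiquitin ligase, read 5.12, 4.86, 5.12, 4.95 and 4.81 in treated livers and 5.69, 5.77, 5.53, 5.55 and 5.63 in vehicle. The groups lay apart, with much the same spread, and the signal was 1.58-fold lower (log2 -0.66, SE 0.14, limma adjusted p 0.0189). It was also called when only the 10 arrays were fitted (adjusted p 0.044). Of the 42 called genes Spsb4 alone kept its call in that fit, where Abcc4, for example, had an adjusted p of 0.201. Ccdc157, a coiled-coil protein, read 5.71, 5.75, 6.03, 5.42 and 4.90 against 6.06 to 6.18 (log2 -0.56, SE 0.13, adjusted p 0.0492), lowest in replicate 5. Tshz1, a zinc finger transcription factor, read 6.97, 7.56, 7.15, 6.64 and 7.20 against 7.43 to 7.76 (log2 -0.52, SE 0.12, adjusted p 0.0319), with replicate 2 inside the vehicle range. Ndufa3 of respiratory complex I fell by 0.25 (SE 0.06, adjusted p 0.0401) and Cox6b1 of complex IV by 0.17 (SE 0.04, adjusted p 0.0492), and both lay below all vehicle livers in all 5 treated ones. Of 22 other oxidative phosphorylation genes, 0 were called, 10 were lower at an unadjusted p under 0.05 and all 22 differences were below 0, between -0.26 and -0.03. Among these, Sdhb of complex II read 12.31, 12.15, 12.26, 12.01 and 12.21 against 12.40 to 12.50 (log2 -0.26, SE 0.08, adjusted p 0.130). Sgca, a sarcoglycan of muscle, Kif17, a kinesin, Myo7b, a myosin of brush borders, and Nckap5 fell by 0.39, 0.37, 0.44 and 0.40. Their vehicle means also lay below 4.23, so the sizes of these falls are not exact. The RIKEN gene 3110021A11Rik fell by 0.41, with replicate 1 inside the vehicle range.

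Inflammatory genes differed widely between the treated livers. Of 26 acute phase genes, the plasma proteins that liver makes in inflammation, 0 were called in limma, although all 26 differences were above 0 and 18 had an unadjusted p under 0.05. The median was 0.46, and 0.31 without replicate 4. Lcn2, which binds bacterial siderophores, read 9.54, 8.17, 11.95, 12.87 and 11.93 in treated livers and 7.89, 6.43, 5.86, 10.26 and 7.16 in vehicle. Replicates 3, 4 and 5 were above every vehicle liver, and replicates 1 and 2 were below vehicle replicate 4 (log2 3.37, SE 1.16, adjusted p 0.151). Orm2 and Saa2 had the same order of livers in vehicle, with the highest values in replicate 4 at 11.16 and 11.06. Fgg, the gamma chain of fibrinogen, differed less but without overlap, reading 13.57 to 13.85 against 13.44 to 13.53 (log2 0.21, SE 0.07, adjusted p 0.140).

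**Figure D3:**
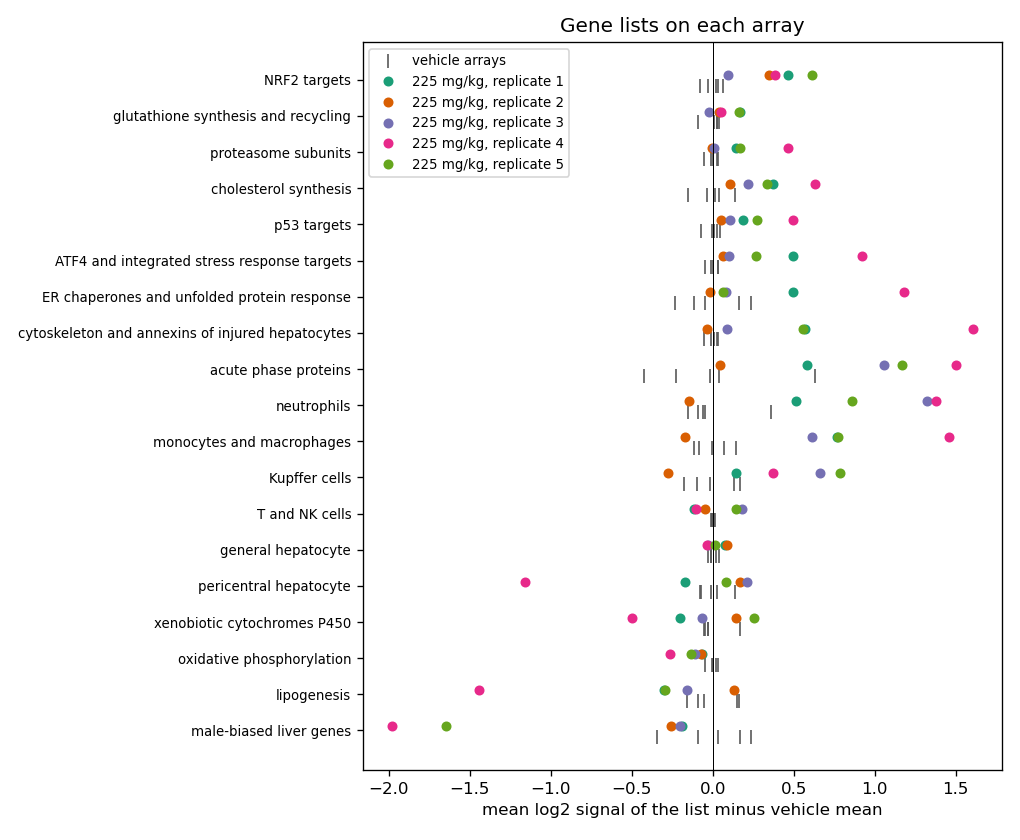
Mean log2 signal of 19 gene lists minus the vehicle mean, for each of the 5 treated arrays (points by replicate) and the 5 vehicle arrays (ticks). NRF2 targets lie from 0.09 to 0.61, acute phase genes from 0.04 in replicate 2 to 1.5 in replicate 4, and pericentral genes are lowest in replicate 4 at -1.16.

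Markers of immune cells were high in some treated livers and not in others. Of 20 monocyte and macrophage markers 0 were called, all 20 differences were above 0, 11 had an unadjusted p under 0.05 and the median was 0.49, or 0.37 without replicate 4. The list averaged 0.76, -0.17, 0.61, 1.46 and 0.78 above the vehicle mean in replicates 1 to 5. Cd68, a lysosomal protein of macrophages, read 8.46, 7.05, 7.81, 9.39 and 8.58 against 6.69 to 7.03, so that replicate 2 lay only just above vehicle (log2 1.39, SE 0.38, limma adjusted p 0.0743). Lgals3, a galectin of phagocytes, read 9.18, 6.82, 7.88, 11.27 and 9.12 against 6.73 to 6.94, and Chil3, of activated macrophages, 6.02, 2.76, 4.76, 8.55 and 4.71 against 2.71 to 3.18. In both genes replicate 2 lay within the vehicle range (adjusted p 0.127 and 0.163). Of 15 neutrophil markers 0 were called, with a median of 0.22 and array averages of 0.51, -0.15, 1.32, 1.38 and 0.86. S100a8, a neutrophil calcium-binding protein, read 4.94, 3.59, 7.18, 8.56 and 5.93 against 3.66 to 4.46 (log2 2.01, SE 0.86, adjusted p 0.223). In bulk liver, fewer cells of a type and less RNA per cell cannot be told apart, and likewise for more.

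Genes of the zone where APAP is activated were on average lowest in replicate 4. Of 22 pericentral markers 0 were called, while 3 were higher and 2 lower at an unadjusted p under 0.05. All 5 treated livers lay above vehicle for 3 markers and below it for 1, where 1.99% of all genes lay wholly above and 2.03% wholly below. The list average stood at -0.17, 0.17, 0.21, -1.16 and 0.08 from the vehicle mean in replicates 1 to 5, against -0.08 to 0.14 for single vehicle livers. Replicates 1 and 4 were thus below every vehicle liver. The list's median difference of -0.17 became 0.07 without replicate 4. Glul, the glutamine synthetase of the innermost pericentral hepatocytes, read 11.08, 11.66, 11.63, 9.01 and 11.34 against 11.60 to 11.74 in vehicle (log2 -0.71, SE 0.42, adjusted p 0.354). Slc1a2, a glutamate transporter of the same cells, read 7.37, 8.02, 8.11, 3.55 and 7.83 against 7.94 to 8.24 (log2 -1.09, SE 0.67, adjusted p 0.370). Replicates 1, 4 and 5 lay below every vehicle liver in both genes, and replicate 4 was by far the lowest. Both genes were named after their values were seen. Lect2, a secreted protein and 1 of the 3 markers wholly above vehicle, read 11.19 to 11.63 against 10.81 to 11.02 (log2 0.41, SE 0.10, adjusted p 0.0508).

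The lists of lipid and hormone-dependent genes had no called member. Of 19 lipogenesis genes 0 were called, 6 were lower at an unadjusted p under 0.05, and the median was -0.38, or -0.11 without replicate 4. Pklr, liver pyruvate kinase, was lower without overlap at 7.11, 7.74, 7.48, 6.31 and 7.04 against 7.88 to 8.26 (log2 -0.89, SE 0.32, adjusted p 0.167). Of 13 cholesterol synthesis genes 0 were called, while 6 were higher at an unadjusted p under 0.05, with a median of 0.38. Fdft1, squalene synthase, read 10.00 to 10.53 against 9.62 to 9.95, and Lss, lanosterol synthase, 8.57 to 9.52 against 8.04 to 8.48, both without overlap (adjusted p 0.163 and 0.195). Of 13 genes that are higher in male than in female liver 0 were called and 9 were lower at an unadjusted p under 0.05. That list stood at -0.19, -0.26, -0.20, -1.98 and -1.65 from vehicle in replicates 1 to 5, so that replicates 4 and 5 were apart from the others. Slco1a1, an organic anion transporter, read 11.30, 11.29, 11.13, 10.14 and 9.49 against 11.26 to 11.47, and Cyp7b1, a hydroxylase of oxysterols, 11.56, 11.28, 11.58, 9.27 and 9.66 against 11.31 to 12.11 (adjusted p 0.198 and 0.189). Of 21 cytoskeleton and annexin genes known to rise in injured hepatocytes 0 were called and 10 were higher at an unadjusted p under 0.05. Their median of 0.56 was 0.26 without replicate 4. Tagln2, an actin-binding protein, Clic1, a chloride channel protein, and Cnmd had the largest ratios of treated to vehicle SD among genes brighter than the median, at 30.5, 26.5 and 24.5. Tagln2 read 8.13, 7.20, 7.39, 9.43 and 7.81 against 7.12 to 7.19.

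Neighbouring doses placed these values on a scale, with the caution that each dose is set against the same 5 vehicle livers. For Nqo1 the log2 difference from vehicle was 0.41 at the low, 1.36 at the medium and 0.82 at the high dose. For Abcc4 it was 0.59, 2.04 and 1.56, for Psat1 1.13, 3.49 and 3.50, and for Car2 0.55, 1.43 and 0.48. These genes were taken from those called at the medium dose, which favours a highest mean there. Of the 30 called rises, 24 were larger at the medium than at the high dose. The direct limma contrast of high with medium dose called none of Nqo1, Abcc4, Psat1 and Car2 (adjusted p 0.243, 0.567, 0.995 and 0.0632). At the high dose 5207 genes were called against vehicle (30.1%), and at the low dose 0. One low-dose liver was far above the other 4 in Psat1 and Abcc4. Psat1 read 7.75 in low-dose replicate 1 and 3.25 to 3.58 in the other 4, and Abcc4 read 7.63 there and 4.79 to 5.06 in the others. Nqo1 was more even at the low dose, at 6.56, 6.30, 6.17, 6.76 and 5.81. At the high dose, replicate 1 was the lowest liver, at 5.07 for Abcc4, 3.53 for Psat1 and 6.24 for Car2. The other 4 high-dose livers read 6.33 to 7.14, 6.25 to 7.93 and 6.73 to 7.33. The direct test of the medium against the low dose called 0 genes in limma (0%), with a smallest adjusted p of 0.248. At an unadjusted p under 0.05 it had 1256 genes, where about 865 would be expected if those p values were exact. It called 18 genes without low-dose replicate 1, 1 without low-dose replicate 4, 2 without medium-dose replicate 3 and 74 with array weights, so the 0 does not show that these doses act alike.

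**Figure D4:**
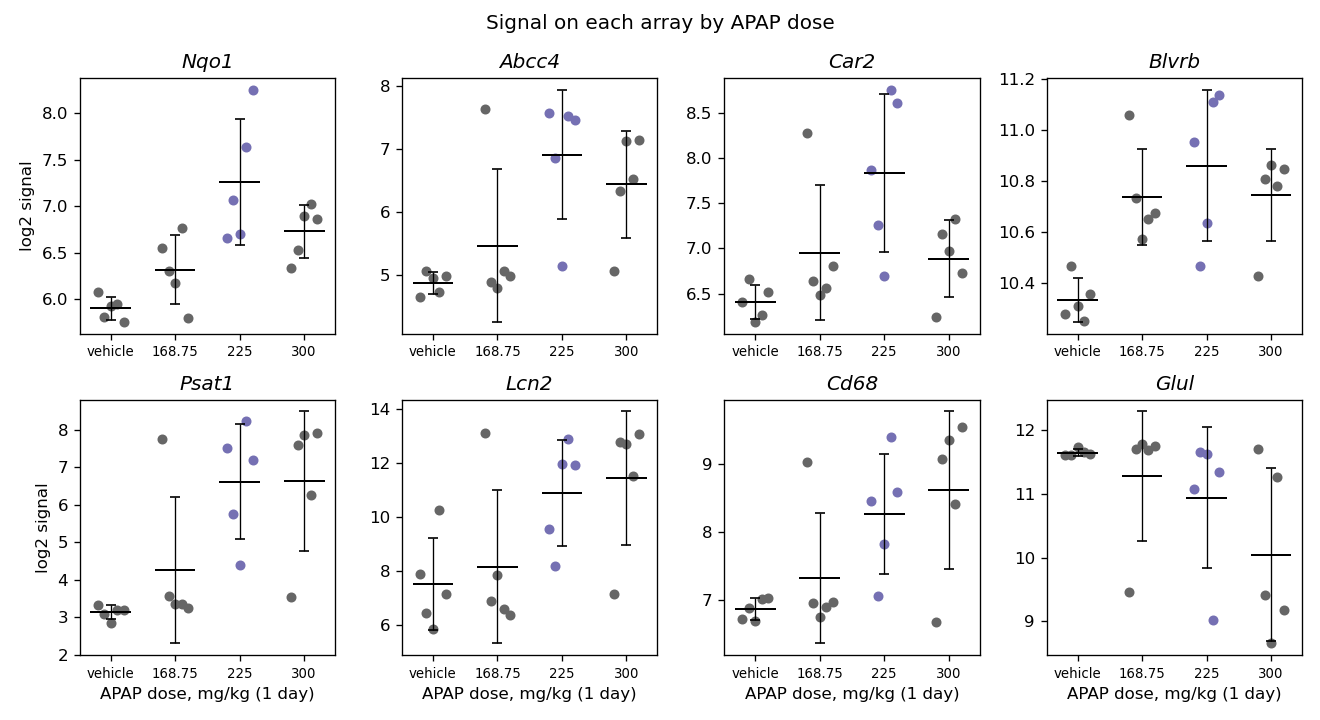
Log2 signal of 8 genes on each array of vehicle and of 168.75, 225 and 300 mg/kg APAP at 1 day, with the mean (line) and SD (bar) of 5 arrays. Nqo1, Abcc4, Car2 and Blvrb have their highest mean at 225 mg/kg, but none of them was called between 300 and 225 mg/kg. The limma adjusted p of that contrast was 0.243, 0.567, 0.0632 and 0.562. Psat1, Lcn2 and Cd68 are as high or higher at 300 mg/kg, and Glul has its lowest value at 225 mg/kg in replicate 4 (9.01).

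The high dose differed from the medium dose in 19 genes (0.11%), of which 4 were higher (0.0231%) and 15 lower (0.0867%) at 300 mg/kg. Itgam, an integrin of myeloid cells, read 3.21, 3.33, 3.46, 3.92 and 3.56 at the medium and 3.27, 5.58, 5.08, 3.87 and 5.86 at the high dose (log2 1.24, SE 0.28, limma adjusted p 0.0424). Replicates 2, 3 and 5 of the high dose were above all medium-dose livers. Fmo1, a flavin monooxygenase, and Aldh1b1, a mitochondrial aldehyde dehydrogenase, were both lower by 1.01 at the high dose (adjusted p 0.0424 and 0.0355; log2 -1.01 each). Ebpl, related to a sterol isomerase, read 11.73, 11.82, 11.84, 11.82 and 12.24 at the medium and 11.53, 11.14, 11.35, 11.62 and 11.17 at the high dose. The 2 doses did not overlap (log2 -0.53, SE 0.09, adjusted p 0.0039), and vehicle ranged from 11.44 to 11.62. Hacl1, of fatty acid alpha-oxidation (log2 -0.62), and Slc44a1, a choline transporter (-0.58), were also lower, and Afdn, a junction protein (0.39), Gm13889 (0.83) and Rsad1 (0.33) were higher. The count was 2213 without high-dose replicate 1, which had 13 genes above and 20 below vehicle by more than 1 log2 unit, 1985 without medium-dose replicate 4 and 935 without high-dose replicate 4. It was 1 to 3 without medium-dose replicate 1, 2 or 3 or high-dose replicate 3, and 0 without high-dose replicate 2 or 5 or medium-dose replicate 5.

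**Figure D5:**
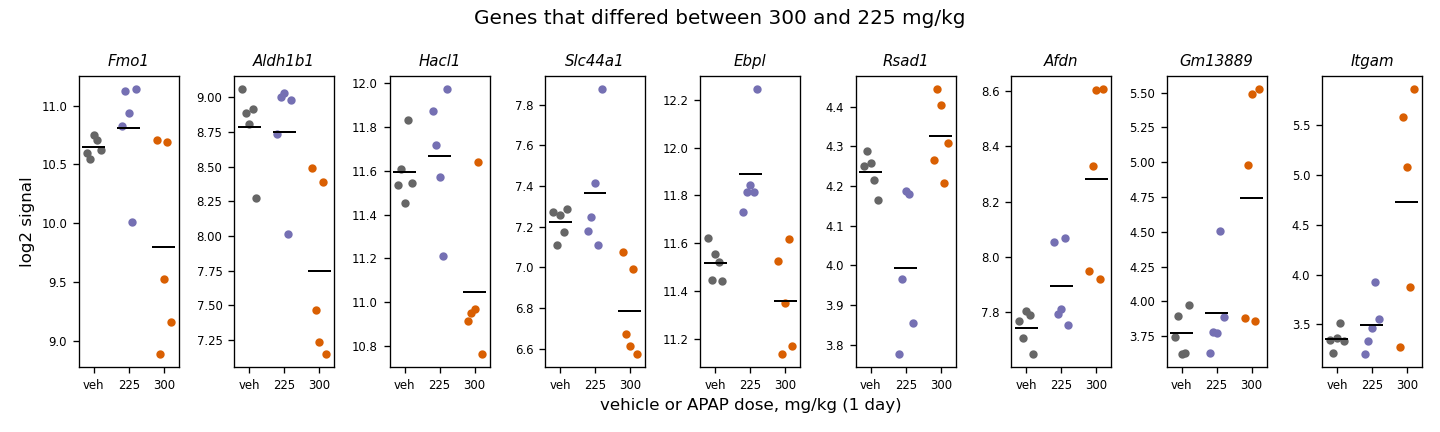
Log2 signal on each array of vehicle, 225 and 300 mg/kg at 1 day for 9 of the 19 genes that differed between the doses, with group means as lines. Ebpl at 225 mg/kg lies above all arrays of 300 mg/kg, and Itgam, Afdn and Gm13889 are highest in 3 of the 5 arrays of 300 mg/kg.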

How the data were processed

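The values deposited by the authors are log2 signals, with RMA named in the submitters' processing notes, a method that corrects background, normalizes quantiles and summarises probes. No array files were used here, so detection above background is unknown. Of 17306 probe sets, 16464 carried 1 gene symbol, 842 none and 0 several. Symbols were looked up by gene ID in RefSeq (GRCm38.p6), and 0 needed updating. Genes without a symbol were counted and not named.

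A mean per group was fitted over all 69 arrays of the 14 groups with limma 3.58.1 in R 4.3.3 (55 residual and 3.5 prior degrees of freedom). Differences are two-sided moderated tests with Benjamini-Hochberg adjustment over all probe sets, called at an adjusted p under 0.05. The shared spread includes groups that vary less than the APAP groups, so p values are too small for genes that vary widely among treated livers. SE is limma's, and SD is over 5 arrays. Exact permutation tests enumerated every split of the 10 arrays. The model was tested on simulated data with the same spread in every group. That test cannot check how the model handles treated livers that vary more than vehicle livers.

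The comparison, the 44 gene lists (28 of pathways, 16 of cell types) and the rules were chosen with earlier results of these data known, so lists are described by counts and medians without a test. Named were the 15 largest rises and falls called, called list members and the 3 smallest p of each list, 9 genes chosen by name, 3 by SD ratio and up to 4 per direction in the dose contrasts. Further genes named after their values were seen are Cbr1, Srxn1, Pgd, Glul, Slc1a2, Elovl3, Orm2, Lcn2 and Saa2 and the called genes below the 15 largest. Alternatives varied the arrays fitted, weights, scaling, dim genes, title numbers and single arrays. Gene list counts and medians without treated replicate 4 were added after seeing the data. Python 3.11.15, numpy 2.4.6 and matplotlib 3.10.9 drew the plots. The number of arrays limits the precision, and p values measure only the spread between these arrays.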

Additional observations from a re-analysis of the deposited data

Results flagged for a closer look

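Over 84 genes named here, the highest or lowest of the 5 arrays of a group stood far from the other 4 in 10 cases over both groups (7 treated and 3 vehicle). Chance flags about 1 in 20 groups, but some of these genes were picked for their spread (Cnmd) or after their values were seen (Glul, Slc1a2 and Elovl3), so that rate is no yardstick for the number found. Treated replicate 4 was the low array for Cnmd (4.53, others 7.51 to 8.29), Elovl3 (5.23, others 9.77 to 10.2), Fmo1 (10.0, others 10.8 to 11.1), Glul (9.01, others 11.1 to 11.7) and Slc1a2 (3.55, others 7.37 to 8.11). Elovl3 is a fatty acid elongase. Treated replicate 1 was high for 3110021A11Rik (4.32, others 3.83 to 3.96) and replicate 5 was high for Ebpl (12.2, others 11.7 to 11.8). Vehicle replicate 3 was high for Prdx3 (10.9, others 10.7 to 10.8) and Trdc (3.15, others 2.86 to 2.91) and low for Nupr1 (2.97, others 3.34 to 3.39).

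The high dose differed from the medium dose by the direct limma contrast, in log2 units, for Itgam (1.24), Gm13889 (0.830), Afdn (0.387), Rsad1 (0.333), Ebpl (-0.529), Slc44a1 (-0.579), Hacl1 (-0.621), Aldh1b1 (-1.01) and Fmo1 (-1.01). For Itgam, Gm13889 and Fmo1 the high-dose arrays also spread widely.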

How the results depend on the processing

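The count of 42 genes against vehicle was 2 in the fit of 10 arrays, 0 in the fit of 20 (smallest adjusted p 0.173, 2044 genes at an unadjusted p under 0.05) and 11 with all 1-day arrays. It was 418 with array weights, 80 without dim genes, 385 with the vehicles of both days, 1007 without the first replicates of the APAP high and low doses and the PQ high dose at 1 day, 1733 with title numbers up to 190 and 169 at an adjusted p under 0.1. Leaving out 1 array gave 9 to 1.6e+02 (120 higher and 38 lower). Higher genes made up 71.4% of the calls, 41.3% after centring and 59.5% after quantile normalization. The count of 0 against the low dose was 74 with array weights and 0 to 18 without 1 array. The count of 19 between high and medium doses was 0 in the fits of 10 and of 20 arrays, 2 with all 1-day arrays, 5518 with weights, 9 after centring, 36 without dim genes and 0 to 2213 without 1 array. Why the counts moved was not tested beyond the arrays each setting leaves out. Of the 38 named called genes, Abcc4, Blvrb, Car2, Nqo1 and Slc48a1 stayed called in each of 10 fits without 1 array, 0 stayed called in every one of the other settings, and 0 changed direction. No paired analysis was possible because each mouse gave a single array and the titles share no replicate numbers. Signals below 4.23 may be background, which limits the sizes printed for dim genes.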

Other observations

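Gene lists not yet described had no called member in the comparison with vehicle, apart from Abcc4 among 20 bile acid genes, whose list median was -0.24. Of 21 ER chaperones and genes of the unfolded protein response, 20 differences were above 0 with a median of 0.38, or 0.20 without treated replicate 4. Hspa5, the main chaperone of the ER, read 11.28, 10.92, 10.71, 12.01 and 10.80 against 10.57 to 10.71 in vehicle, with replicate 3 at the level of the highest vehicle liver (log2 0.50, SE 0.24, limma adjusted p 0.256). Edem1, which directs misfolded proteins to degradation, was higher without overlap at 9.75 to 10.10 against 9.44 to 9.61 (log2 0.38, SE 0.11, adjusted p 0.108). Of 12 heat shock chaperones the median was 0.21, and 0.01 without replicate 4.

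Of 31 cell cycle genes 0 were called and 5 were higher at an unadjusted p under 0.05, with a median of 0.11. Mcm6 and Mcm4, parts of the helicase that opens replication origins, lay above all vehicle livers in all 5 treated ones. Mcm6 read 6.58, 5.83, 5.79, 7.17 and 6.40 against 4.84 to 5.66, and Mcm4 read 6.16, 5.85, 5.75, 7.32 and 6.48 against 5.29 to 5.59 (adjusted p 0.139 and 0.162). Of 15 Kupffer cell markers 3 were higher at an unadjusted p under 0.05, with a median of 0.26. Of 18 endothelial markers 2 were, with a median of 0.03 that turned to -0.03 after centring. Of 22 chemokines and cytokines 1 was, with a median of 0.33. Over all 17306 genes 1576 were higher at that p, a share that the endothelial and chemokine counts did not clearly exceed. Ccl2, which attracts monocytes, read 4.04, 3.04, 4.71, 7.49 and 3.81 against 3.10 to 3.47, with replicate 4 highest and replicate 2 below every vehicle liver (log2 1.29, SE 0.68, adjusted p 0.299). Cyp7a1, which sets the rate of bile acid synthesis, read 9.11, 9.48, 10.56, 6.94 and 9.90 against 8.84 to 10.07, low in replicate 4 alone (log2 -0.21, SE 0.78, adjusted p 0.906).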
